A study of Homo sapiens with 10 samples.

Results

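Immune checkpoint ligands and CD73 are 7 genes of the cell surface that restrain immune cells: CD274, PDCD1LG2, CD276, CD47, NT5E, PVR and NECTIN2. All annotated regions that carried one of these 7 gene symbols were taken, which gave 59 of 67387 annotated regions, themselves part of 169637 counted regions. Of these 59 regions, 35 were in a promoter class of the deposited annotation, and the other 24 are called distal here. Only the distal regions of CD47 were intergenic. Those of the other genes were annotated to introns, an exon or a 3′ UTR, so distal does not mean far from the gene. Each region was 502 bp long, so levels per region are also levels per length.

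The mark measured was H3K27ac (histone H3 acetylated on lysine 27), which is found at active promoters and enhancers. ChIP-seq, in which chromatin pulled down with an antibody to the mark is sequenced, was run on H1975 cells. H1975 is a cell line from a human lung adenocarcinoma with mutant EGFR, and every group came from this single line. DMSO controls had 21 days in drug-free medium and 3 days in DMSO. Osimertinib DTPs, the drug-tolerant persister cells that outlive a long exposure, had 24 days in 500 nM osimertinib, a drug that blocks mutant EGFR. Osimertinib DTP + AZD5153 cells had 21 days in 500 nM osimertinib and then 3 days in 150 nM AZD5153, a bivalent bromodomain inhibitor. Whether osimertinib was kept on during those last 3 days is not said in the labels. Each group had 3 libraries, described as biological replicates, and 1 pooled input library was also counted.

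Tumour cells hold back immune attack through proteins on their surface. CD274 encodes PD-L1 and PDCD1LG2 encodes PD-L2, both ligands of the T cell receptor PD-1, and CD276 encodes B7-H3, a relative in the B7 family. CD47 binds SIRP-alpha on phagocytes and blocks engulfment. NT5E encodes CD73, the enzyme that turns extracellular AMP into adenosine, which dampens T cells through adenosine receptors. PVR (CD155) and NECTIN2 (CD112) bind the inhibitory receptor TIGIT and the activating receptor DNAM-1 on T cells and natural killer cells. H3K27ac at a gene is a measure of its regulatory regions and not of its RNA or protein.

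The promoters of 4 genes are shown because the regions compared lie on or beside them and because they differ in base composition. Each is the 250 bases before the RefSeq start on GRCh38.p14. Capitals mark matches, on both strands, to AP-1 (TGANTCA), CRE (TGACGTCA), TEAD (GGAATG), STAT (TTCNNNGAA), IRF (GAAA, any 2 bases, GAAA), ETS (CCGGAAG), SP/KLF (GGGCGG) or NF-kB (GGGA, any 4 bases, CC).
CD274 promoter, chr9:5450292-5450541, plus strand: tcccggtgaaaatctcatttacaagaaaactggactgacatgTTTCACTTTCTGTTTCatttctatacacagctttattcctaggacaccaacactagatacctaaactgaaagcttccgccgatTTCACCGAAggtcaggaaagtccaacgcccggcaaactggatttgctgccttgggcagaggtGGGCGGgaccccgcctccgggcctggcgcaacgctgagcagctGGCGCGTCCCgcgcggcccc
NT5E promoter, chr6:85449833-85450082, plus strand: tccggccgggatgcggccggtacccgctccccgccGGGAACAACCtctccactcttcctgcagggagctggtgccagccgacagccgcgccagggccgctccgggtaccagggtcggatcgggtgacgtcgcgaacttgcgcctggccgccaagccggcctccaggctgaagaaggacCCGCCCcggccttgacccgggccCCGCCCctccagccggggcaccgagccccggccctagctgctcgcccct
CD47 promoter, chr3:108091032-108091281, minus strand: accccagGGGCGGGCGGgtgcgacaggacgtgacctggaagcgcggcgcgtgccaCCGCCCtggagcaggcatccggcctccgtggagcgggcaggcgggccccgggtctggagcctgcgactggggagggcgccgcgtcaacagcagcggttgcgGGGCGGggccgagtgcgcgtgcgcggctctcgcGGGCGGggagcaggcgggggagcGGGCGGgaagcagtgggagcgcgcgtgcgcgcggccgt
PVR promoter, chr19:44643660-44643909, plus strand: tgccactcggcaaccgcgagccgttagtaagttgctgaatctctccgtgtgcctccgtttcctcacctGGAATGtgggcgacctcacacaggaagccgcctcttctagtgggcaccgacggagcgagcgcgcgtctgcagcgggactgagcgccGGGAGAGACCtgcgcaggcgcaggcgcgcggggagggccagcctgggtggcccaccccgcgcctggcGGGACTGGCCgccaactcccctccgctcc

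The CD274 promoter held 2 IRF matches that overlap each other, 1 STAT match, 1 SP/KLF match and 1 NF-kB match. IRF letters were found in 3.02% of 35116 RefSeq promoters of the same length, and STAT letters in 6.57%. NT5E had 2 SP/KLF matches and 1 NF-kB match, CD47 had 6 SP/KLF matches of which a pair overlap, and PVR had 1 TEAD match and 2 NF-kB matches. SP/KLF letters were found in 42.6% of all promoters, NF-kB letters in 22.6% and TEAD letters in 11.9%. GC content was 54.8% at CD274, 75.2% at NT5E, 79.6% at CD47 and 70.0% at PVR, against a median of 58.0% over all promoters. CD274 was thus the only promoter of these 4 below that median. A match is a run of letters and no evidence of binding.

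Total counts ranged from 6263443 to 10463351 over the 9 H3K27ac libraries, and the input had 1870885. The input had a median of 10 and at most 26 counts in the 59 regions. The third library of osimertinib DTP + AZD5153 stood apart. Its Spearman correlation with replicates 1 and 2 across regions was 0.445 and 0.367, while those 2 libraries correlated at 0.888. Regions within 1 kb of a start held 66.7% of the annotated counts in this library and 59.8% in osimertinib DTP replicate 2, against 40.3% to 45.9% in the other 7. Tested differences that involve this group are therefore given with and without it for the regions, sums and genes named. The labelled cell line was checked on epithelial markers. All 7 of them (EPCAM, CDH1, KRT8, KRT18, KRT7, NKX2-1 and NAPSA) had annotated regions, and their highest promoter regions had means between 11.5 CPM at KRT18 and 70.6 CPM at KRT8, both keratins of simple epithelia. CPM means counts per 1000000 counts in the tested regions, scaled with TMM. The same means at fibroblast markers were between 7.44 CPM at COL1A2 and 17.4 CPM at PDGFRB, and the endothelial marker CDH5 had 17.1 CPM. COL1A1, PDGFRB and CDH5 lay above KRT18, CDH1 (15.9 CPM) and NAPSA (16.4 CPM). NKX2-1 (21.8 CPM), EPCAM, KRT7 and KRT8 lay above all of these. Promoter level therefore separated only part of the epithelial markers from the others. Among leukocyte genes, PTPRC and CD3E had no annotated region and CD14 had 1. The CD14 region had 3.26 to 4.34 CPM in DMSO, 2.82 to 3.90 CPM in osimertinib DTP and 6.40 to 10.1 CPM in osimertinib DTP + AZD5153. It was not called in any comparison. Of the 78 epithelial regions, 4 (5.13%) were higher and 6 (7.69%) lower in osimertinib DTP than in DMSO. Over all tested regions 5.58% were higher and 5.13% lower. The marker calls were 3 lower at EPCAM, 3 lower and 1 higher at CDH1 and 3 higher at KRT18. In osimertinib DTP + AZD5153 there were 8 (10.3%) higher and 11 (14.1%) lower, of which 9 lower at CDH1. The shares over all regions were 9.05% and 9.01%. Without the third library the epithelial counts were 7 higher and 19 lower, beside 18.4% and 17.3% over all regions. Fibroblast markers had 14 regions, and their summed level was 34.9 to 86.7 CPM in DMSO, 132 to 263 CPM in osimertinib DTP and 214 to 475 CPM in osimertinib DTP + AZD5153. In this list 6 regions (42.9%), all at PDGFRB, were higher in osimertinib DTP than in DMSO, and none was lower. In osimertinib DTP + AZD5153 12 (85.7%) were higher, 11 at PDGFRB and 1 at COL1A2, and none was lower. Without the third library 10 were higher. The shares over all regions are those given for the epithelial markers. The summed level of the 14 endothelial regions was 137 to 190 CPM, 126 to 184 CPM and 104 to 172 CPM in the same order. Of these, 1 (7.14%) was lower in osimertinib DTP than in DMSO and 4 (28.6%) in osimertinib DTP + AZD5153, with 0 higher in both. Without the third library 5 were lower and 0 higher in osimertinib DTP + AZD5153. The same shares over all regions apply. The part of these markers in the results was not tested.

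H3K27ac fell at part of the regions of NT5E, CD274, PDCD1LG2, CD47 and CD276 in osimertinib DTP, and no member region rose past the threshold. Compared with DMSO, 10 of the 59 regions were lower and 0 were higher at an adjusted p under 0.05 (edgeR quasi-likelihood test with Benjamini-Hochberg adjustment over 157919 regions). The background over all tested regions was 5.13% lower and 5.58% higher. Of the 10 lower regions, 5 belonged to NT5E, 2 to CD47 and 1 each to CD274, PDCD1LG2 and CD276. DESeq2 gave 14 lower and 0 higher regions, beside a background of 9.76% lower and 7.92% higher. By edgeR, 21 regions had an unadjusted p under 0.05. The share of all tested regions at that unadjusted p is not given, so this count has no background. Both tests take the libraries as unpaired. In an edgeR fit with the replicate number as a block, 9 regions were lower and 0 higher. The background of that fit was 5.07% lower and 5.34% higher. The median log2 fold change of the 59 regions was -0.83, beside 0.15 for all tested regions, and 38 of the 59 were below 0. In bulk chromatin, fewer cells that carry the mark and less of the mark per cell cannot be told apart.

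The number of calls depended on single libraries. Without the third osimertinib DTP + AZD5153 library, which shares its estimate of spread with all groups, 18 member regions were lower and 5 were higher in osimertinib DTP than in DMSO. The background of that fit was 12.7% lower and 14.2% higher. The 5 higher regions were 3 at NECTIN2 and 2 at PVR. The counts that follow were all of lower regions. Leaving out DMSO replicate 2 left 1 called region, DMSO replicate 3 left 3, and osimertinib DTP replicates 1, 2 and 3 left 4, 2 and 2. Without DMSO replicate 1, and without replicates 1 and 2 of the third group, 7, 9 and 12 regions were called. The share of all tested regions that was lower moved too, and was 0.294% without DMSO replicate 2, 1.13% without DMSO replicate 3, 0.903% to 1.74% without 1 osimertinib DTP library, and 2.83%, 4.75% and 6.37% in the last 3 of these fits.

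**Figure D1:**
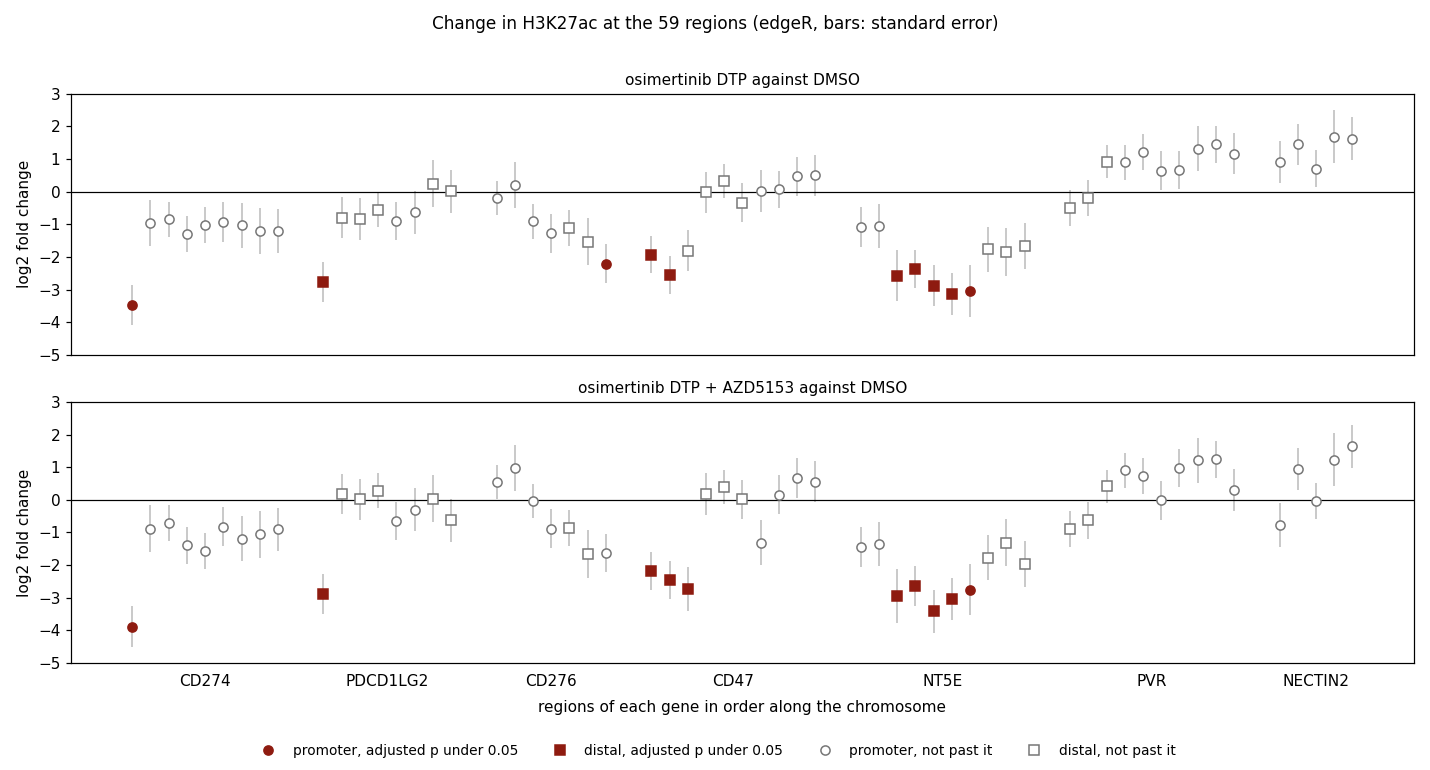
Log2 fold change against DMSO (vertical axis, bars are standard errors) at the 59 regions, ordered along the chromosome within each gene, for osimertinib DTP (top) and osimertinib DTP + AZD5153 (bottom). Filled symbols are the 10 regions past the threshold in each comparison, and all of them lie below 0.

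Regions are numbered within each gene from the lower coordinate. CD274 had 9 regions on chromosome 9 (RefSeq gene at 5450542 to 5470554), all in a promoter class of the deposited annotation. CD274_6 to CD274_9, at 5453202 to 5455853, were in that class through another annotated start inside the gene. The CD274 promoter sum therefore also covers regions in the gene body. The region with the lowest adjusted p of all members was CD274_1 at chr9:5447182-5447683, 2820 bp before a CD274 start. Its level was 12, 33.7 and 20.1 CPM in DMSO and 2.29, 2.09 and 1.51 CPM in osimertinib DTP. Every persister library was below every DMSO library, and the level was 11.1-fold lower (log2 fold change -3.47, SE 0.60, adjusted p = 0.00385). After AZD5153 it was 1.60, 1.75 and 0.966 CPM, which was 14.9-fold lower than DMSO (-3.89, SE 0.62, adjusted p = 0.00147). Without the third library the log2 value of that second comparison was -3.71 (SE 0.58, adjusted p = 5e-05). The calls at CD274_1 held without each of the 9 libraries in turn, with an adjusted p of at most 0.0473 in osimertinib DTP and 0.0175 after AZD5153. The deposited peak lists had a peak over CD274_1 in all 3 DMSO libraries and in none of the other 6.

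The other CD274 regions changed less. CD274_3, at 2 bp from the start and the highest of the 9 regions on average, had 13.7, 27.3 and 15.6 CPM in DMSO and 8.51, 14.2 and 8.66 CPM in osimertinib DTP. Both groups overlapped there, and the difference did not pass the test (-0.85, SE 0.55, adjusted p = 0.363). All 9 CD274 regions had a log2 value below 0 in both comparisons with DMSO, from -3.47 to -0.85 in osimertinib DTP. Summed over its 9 regions, CD274 had a log2 value of -1.22 (SE 0.58, adjusted p = 0.226) in osimertinib DTP. Without the third osimertinib DTP + AZD5153 library the sum passed the test (-1.23, SE 0.35, adjusted p = 0.0293), and so did 4 of the 9 regions. In osimertinib DTP + AZD5153 the sum was -1.36 against DMSO (SE 0.58, adjusted p = 0.14), and -0.88 (SE 0.40, adjusted p = 0.122) without that library.

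PDCD1LG2 lies downstream of CD274 on the same chromosome (RefSeq gene at 5510531 to 5571282) and had 2 promoter and 6 distal regions. Its first region, PDCD1LG2_1 at chr9:5493782-5494283, lies 16248 bp before the start in an intron of the deposited annotation. It had 11.5, 28.5 and 14.3 CPM in DMSO, 3.44, 2.37 and 2.11 CPM in osimertinib DTP and 3.21, 3.02 and 0.966 CPM in osimertinib DTP + AZD5153. Neither treated group overlapped DMSO, and the level was 6.81-fold lower in osimertinib DTP (-2.77, SE 0.62, adjusted p = 0.0108) and 7.35-fold lower in osimertinib DTP + AZD5153 (-2.88, SE 0.62, adjusted p = 0.00562). The first of these calls was lost without DMSO replicate 2 (adjusted p = 0.0951), osimertinib DTP replicate 2 (0.0621) or osimertinib DTP replicate 3 (0.0739), and the second was not lost without any library (-2.54, SE 0.54, adjusted p = 0.000913 without the third of its group).

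At the promoter of PDCD1LG2 the highest region, PDCD1LG2_5, had 29.5, 52.9 and 35.4 CPM in DMSO and 23.6, 21.7 and 17.9 CPM in osimertinib DTP. The groups did not overlap, but the difference did not pass the test (-0.90, SE 0.59, adjusted p = 0.377). After AZD5153 it had 33.1 and 36.1 CPM in replicates 1 and 2 and 5.80 CPM in the library that stood apart. The 2 PDCD1LG2 promoter regions together had a log2 value of -0.79 in osimertinib DTP (SE 0.65, adjusted p = 0.518), and of -0.81 (SE 0.26, adjusted p = 0.0454) without that library. PDCD1LG2_2, the highest distal region, gave a like picture, with 18.7, 22.2 and 3.48 CPM after AZD5153 beside 6.12, 8.21 and 8.36 CPM in osimertinib DTP. Its log2 value against DMSO after AZD5153 was 0.19 (adjusted p = 0.871), and 0.64 (SE 0.45, adjusted p = 0.274) without the library that stood apart.

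CD276 had 5 promoter and 2 distal regions on chromosome 15. Only CD276_7 at chr15:73696677-73697178, inside the gene and 2462 bp before an annotated start, passed the test in osimertinib DTP. It had 8.52, 9.19 and 9.65 CPM in DMSO, 2.87, 2.37 and 0.705 CPM in osimertinib DTP and 3.51, 2.09 and 3.29 CPM in osimertinib DTP + AZD5153. All treated libraries were below all DMSO libraries, by 4.60-fold in osimertinib DTP (-2.20, SE 0.60, adjusted p = 0.0259). The difference in osimertinib DTP + AZD5153 did not pass the test (-1.62, SE 0.58, adjusted p = 0.0611), and it did without the third library (-1.70, SE 0.54, adjusted p = 0.0179). The osimertinib DTP call was lost without any 1 of the 3 DMSO or the 3 osimertinib DTP libraries, where the adjusted p rose to between 0.0574 and 0.144. CD276_6, the highest distal region, had 5.89, 6.09 and 5.63 CPM in DMSO and 3.63, 0.974 and 1.41 CPM in osimertinib DTP. After AZD5153 it had 1.40, 0.349 and 4.06 CPM. Neither difference from DMSO passed (-1.53, SE 0.71, adjusted p = 0.184, and -1.66, SE 0.73, adjusted p = 0.126). Both passed without the third library (-1.52, SE 0.52, adjusted p = 0.0323, and -2.71, SE 0.66, adjusted p = 0.00306).

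CD276_2, the main promoter region, showed the libraries that differ in promoter share. It had 16.7, 18.5 and 17.1 CPM in DMSO, 11, 41.2 and 8.46 CPM in osimertinib DTP and 13.6, 14.4 and 75.4 CPM in osimertinib DTP + AZD5153. The second osimertinib DTP library and the third osimertinib DTP + AZD5153 library were above all DMSO libraries, and the other treated libraries were below them. The log2 difference was 0.21 in osimertinib DTP (SE 0.70, adjusted p = 0.899) and 0.98 in osimertinib DTP + AZD5153 (SE 0.71, adjusted p = 0.371), where it was -0.32 (SE 0.55, adjusted p = 0.676) without the third library. This region held 75.1% of all CD276 counts in the former library and 70.7% in the latter, and 30.9% to 34.6% in DMSO.

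CD47 had 4 promoter regions and 6 distal regions on chromosome 3. The distal regions lie at 107993006 to 108002270, past the 3′ end of the RefSeq gene (108043091 to 108091031, minus strand), and the deposited annotation gives them to CD47 at 52469 to 61232 bp from a start. CD47_2 had 21.0, 38.8 and 27.2 CPM in DMSO, 4.02, 3.76 and 7.05 CPM in osimertinib DTP and 5.11, 7.91 and 2.71 CPM in osimertinib DTP + AZD5153. The level was 5.85-fold lower in osimertinib DTP (-2.55, SE 0.59, adjusted p = 0.0124) and 5.48-fold lower in osimertinib DTP + AZD5153 (-2.45, SE 0.59, adjusted p = 0.00928). CD47_1 beside it also fell in both (-1.93, SE 0.57, adjusted p = 0.039, and -2.18, SE 0.58, adjusted p = 0.0163). CD47_3 fell in osimertinib DTP + AZD5153 (-2.74, SE 0.67, adjusted p = 0.0106) and had a value of -1.81 (SE 0.63, adjusted p = 0.0716) in osimertinib DTP. Without the third AZD5153 library the values of CD47_1, CD47_2 and CD47_3 in that group were -1.89, -2.16 and -2.49, with adjusted p of 0.00643, 0.00258 and 0.00385. The next regions along the chromosome, CD47_4 to CD47_6, did not pass the test in either comparison.

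CD47_4, the highest distal region, had 18.8, 42.8 and 28.3 CPM in DMSO, 20.6, 35.3 and 32.5 CPM in osimertinib DTP and 41.2, 55.6 and 5.61 CPM in osimertinib DTP + AZD5153. These ranges overlapped (-0.02, SE 0.64, adjusted p = 0.99, and 0.19, SE 0.64, adjusted p = 0.874), and the second value was 0.69 (SE 0.45, adjusted p = 0.242) without the third library. The ratio of counts in CD47_1 to CD47_3 over those in CD47_4 to CD47_6 needs no scaling between libraries. DMSO had ratios of 1.12, 0.94 and 0.946, osimertinib DTP had 0.244, 0.189 and 0.234, and after AZD5153 they were 0.153, 0.165 and 0.205. The DMSO libraries lay above all 6 treated libraries, the treated groups overlapped, and the library that stood apart lay within this treated range. The split into 3 and 3 regions was made after their values were seen, so the ratio is a description with no test.

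**Figure D2:**
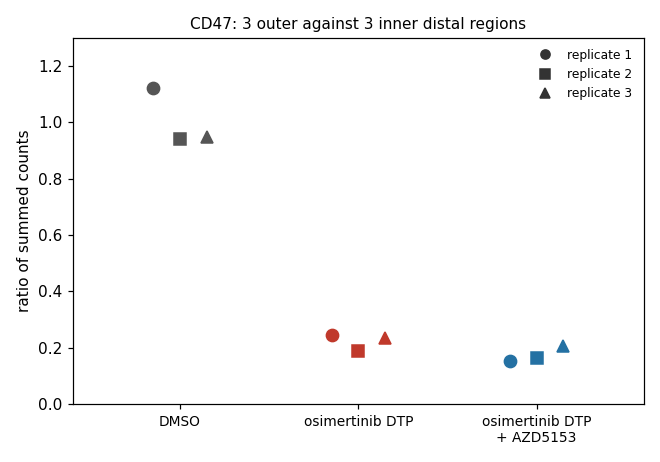
Ratio of summed counts in the 3 outer distal CD47 regions (CD47_1 to CD47_3) to those in the 3 inner ones (CD47_4 to CD47_6), 1 symbol per library. The DMSO libraries lie at 0.94 to 1.12 and the 6 treated libraries at 0.153 to 0.244.

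The calls at the outer CD47 regions rested on several libraries. CD47_2 lost its call in osimertinib DTP without DMSO replicate 2 (adjusted p = 0.0959), DMSO replicate 3 (0.0555), osimertinib DTP replicate 1 (0.0662) or osimertinib DTP replicate 2 (0.0622). After AZD5153 it lost it only without DMSO replicate 2 (0.0628), as did CD47_3 (0.0625). CD47_1 lost its call in osimertinib DTP without any 1 of the DMSO and osimertinib DTP libraries, without osimertinib DTP + AZD5153 replicate 1 and with no filter on low counts (0.0515 to 0.201). After AZD5153 it lost it without DMSO replicate 2, DMSO replicate 3 or osimertinib DTP + AZD5153 replicate 1 (0.0605 to 0.0898). At the promoter, CD47_10 had 21.0, 33.9 and 24.0 CPM in DMSO, 18.5, 75.3 and 18.7 CPM in osimertinib DTP and 20.0, 26.8 and 70.2 CPM in osimertinib DTP + AZD5153. As at CD276_2, the 2 high libraries were the second of osimertinib DTP and the third of osimertinib DTP + AZD5153. The 4 promoter regions together had a log2 value of 0.22 in osimertinib DTP (SE 0.34, adjusted p = 0.76) and of 0.16 in osimertinib DTP + AZD5153 (SE 0.34, adjusted p = 0.79), or -0.27 (SE 0.22, adjusted p = 0.39) without the third library.

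NT5E had the most called regions, 5 of 10 in each comparison with DMSO. It lies on chromosome 6 (RefSeq gene at 85450083 to 85495784, plus strand) and had 3 promoter and 7 distal regions, and all 10 had a log2 value below 0 in both comparisons. NT5E_6 at chr6:85464436-85464937, in an intron, was the highest distal region. It had 27.4, 44.4 and 29.1 CPM in DMSO, 4.59, 5.15 and 1.71 CPM in osimertinib DTP and 4.31, 6.17 and 1.55 CPM in osimertinib DTP + AZD5153. The lowest DMSO library was above the highest treated library, and the level was 8.81-fold lower in osimertinib DTP (-3.14, SE 0.64, adjusted p = 0.00764) and 8.26-fold lower in osimertinib DTP + AZD5153 (-3.05, SE 0.64, adjusted p = 0.005). The call in osimertinib DTP was lost without DMSO replicate 2 (adjusted p = 0.0644) or osimertinib DTP replicate 3 (0.0542), and that in osimertinib DTP + AZD5153 was not lost without any library (-2.69, SE 0.55, adjusted p = 0.000732 without the third of its group).

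The other called NT5E regions were NT5E_3, NT5E_4 and NT5E_5 in the same part of the gene and NT5E_7 further on. Their log2 values were between -3.05 and -2.36 in osimertinib DTP, with adjusted p from 0.00956 to 0.0442. In osimertinib DTP + AZD5153 they were between -3.42 and -2.64, with adjusted p from 0.00303 to 0.0219, and between -3.60 and -2.29, with adjusted p from 0.000148 to 0.00705, without the third library. NT5E_5, for one, had 9.07, 11.7 and 14 CPM in DMSO and at most 1.81 CPM in any treated library. In osimertinib DTP each of these 4 calls was lost without at least 4 of the 9 libraries, and DMSO replicates 2 and 3 and osimertinib DTP replicates 2 and 3 were among them each time, at adjusted p of 0.0549 to 0.178. In osimertinib DTP + AZD5153 NT5E_4 and NT5E_5 kept their calls throughout, while NT5E_3 and NT5E_7 lost theirs without DMSO replicate 2, DMSO replicate 3 or osimertinib DTP + AZD5153 replicate 1 (0.0591 to 0.125). The osimertinib DTP call at NT5E_3 was also lost with the replicate number as a block (adjusted p = 0.0574) and without TMM (0.0792), and the osimertinib DTP + AZD5153 call at NT5E_7 with a loess offset (0.0584) and in a fit of both groups alone (0.0687).

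Of these 4 regions, NT5E_7 is in a promoter class of the deposited annotation and the others are intronic. The region over the NT5E start differed from them in 2 libraries. NT5E_2, over the start at chr6:85450027-85450528, had 22.1, 32.5 and 24.8 CPM in DMSO and 4.78, 27.1 and 6.75 CPM in osimertinib DTP. It had 5.21, 8.49 and 17.8 CPM in osimertinib DTP + AZD5153, so the second osimertinib DTP library overlapped DMSO and no osimertinib DTP + AZD5153 library did. The differences from DMSO did not pass the test (-1.05, SE 0.66, adjusted p = 0.35, and -1.35, SE 0.67, adjusted p = 0.177), and the second did without the third library (-1.96, SE 0.62, adjusted p = 0.0169). NT5E_2 held 54.8% of the NT5E counts in osimertinib DTP replicate 2 and 61.7% in osimertinib DTP + AZD5153 replicate 3, against 18.8% to 28.1% in the other 7 libraries.

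Counts summed per gene used every region. Of 12 member sums, taken over the promoter and over the distal regions of each gene, only the distal NT5E sum was lower in osimertinib DTP (-2.38, SE 0.58, adjusted p = 0.0312 over 21039 sums), and none was higher. The background was 5.7% lower and 4.79% higher. The levels per region behind it were 9.02, 17.1 and 12.8 CPM in DMSO and 2.38, 2.47 and 2.65 CPM in osimertinib DTP. With the replicate number as a block the distal NT5E sum did not pass (-2.30, SE 0.64, adjusted p = 0.0877), nor did it without any 1 of the 3 DMSO or the 3 osimertinib DTP libraries (adjusted p of 0.0577 to 0.113). The promoter sum of NT5E had a value of -1.48 (SE 0.42, adjusted p = 0.0529), and it passed with DESeq2 (-1.53, adjusted p = 0.0036) and without osimertinib DTP replicate 2 (-1.90, adjusted p = 0.044). Without the third osimertinib DTP + AZD5153 library 5 sums were lower and 2 higher, beside a background of 13.1% lower and 12% higher.

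**Figure D3:**
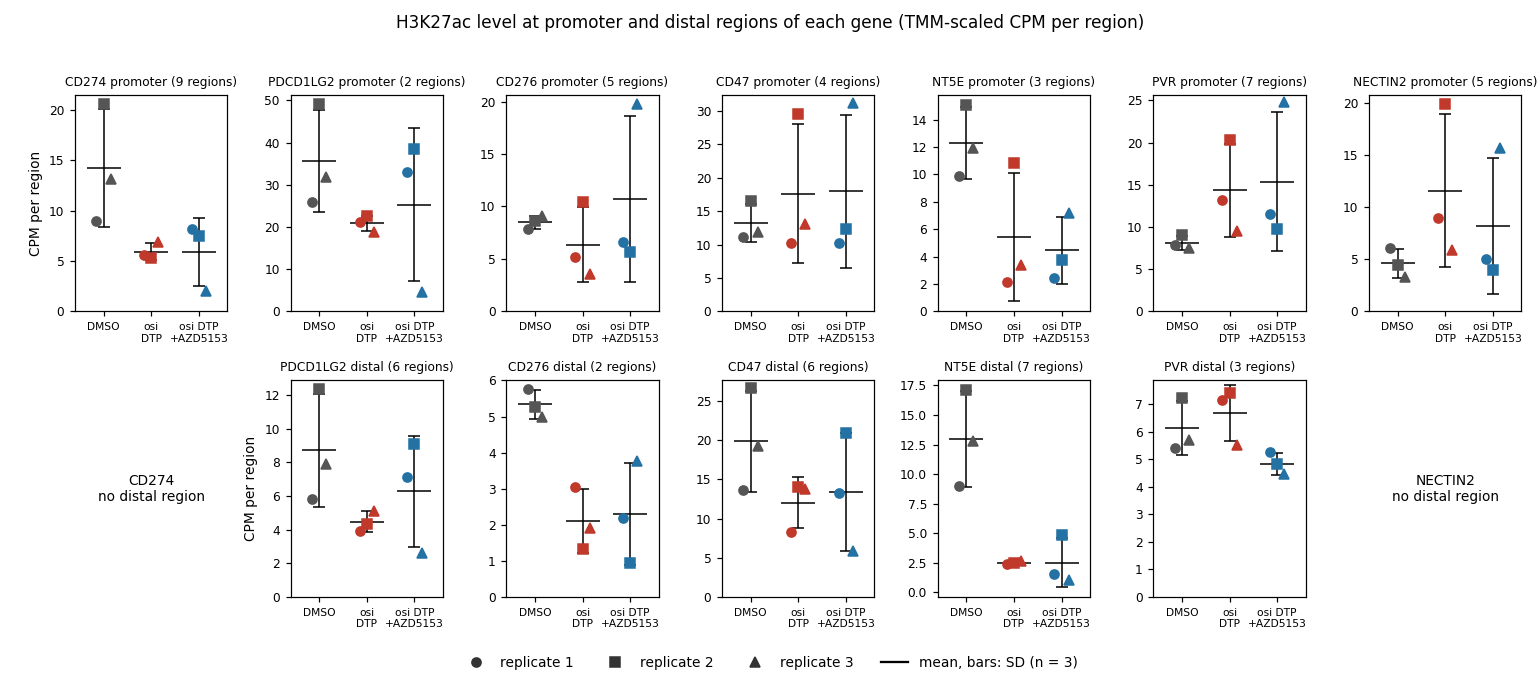
H3K27ac level (CPM per region) at the promoter regions (top) and distal regions (bottom) of each gene, 1 symbol per library with the mean and SD of 3 libraries. At the distal NT5E regions the DMSO libraries lie at 9.02 to 17.1 CPM and the osimertinib DTP libraries at 2.38 to 2.65 CPM.

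In the fit without that library the lower sums were NT5E distal (adjusted p = 0.00291), NT5E promoter (0.00768), CD274 promoter (0.0293), PDCD1LG2 promoter (0.0454) and CD276 promoter (0.0482). The higher sums were NECTIN2 promoter (1.03, SE 0.30, adjusted p = 0.0284) and PVR promoter (0.64, SE 0.20, adjusted p = 0.0393). With all 9 libraries the same PVR and NECTIN2 sums had values of 0.66 (SE 0.29, adjusted p = 0.192) and 1.07 (SE 0.46, adjusted p = 0.185).

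PVR had 7 promoter and 3 distal regions on chromosome 19, and NECTIN2 had 5 promoter regions on the same chromosome. No region of either passed the test with all 9 libraries, in either direction. PVR_7 at chr19:44643904-44644405, on the start, had 33.4, 51.3 and 32.9 CPM in DMSO, 40.9, 115 and 31.0 CPM in osimertinib DTP and 47.3, 49.0 and 135 CPM in osimertinib DTP + AZD5153. Once more the 2 libraries rich in promoter counts were the highest, and the others lay within or just below the range of DMSO (0.67, SE 0.58, adjusted p = 0.526, and 0.98, SE 0.58, adjusted p = 0.267). Without the third library the second of these values was 0.29 (SE 0.50, adjusted p = 0.672). PVR_3, the highest distal region, had 5.44, 4.85 and 4.53 CPM in DMSO and 10.5, 10.4 and 7.15 CPM in osimertinib DTP. After AZD5153 it had 7.71, 6.40 and 5.61 CPM. Neither difference from DMSO passed (0.92, SE 0.51, adjusted p = 0.269, and 0.41, SE 0.51, adjusted p = 0.625). The same held without the third library (0.92, adjusted p = 0.0959, and 0.51, SE 0.45, adjusted p = 0.387). PVR_9, inside the gene, had 1.27, 1.55 and 2.21 CPM in DMSO and 4.68, 3.20 and 5.84 CPM in osimertinib DTP. These groups did not overlap, and the lowest adjusted p at PVR was found there (1.45, SE 0.56, adjusted p = 0.106, and 0.024 without the third osimertinib DTP + AZD5153 library).

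The NECTIN2 promoter had its highest region at NECTIN2_2, chr19:44844409-44844910. It had 10.1, 8.57 and 5.83 CPM in DMSO, 15.4, 42.0 and 9.87 CPM in osimertinib DTP and 11, 8.26 and 28.0 CPM in osimertinib DTP + AZD5153. DMSO overlapped both treated groups, and the difference in osimertinib DTP did not pass the test (1.45, SE 0.64, adjusted p = 0.159). Without the third osimertinib DTP + AZD5153 library it did (1.45, SE 0.49, adjusted p = 0.0293), as did NECTIN2_4 and NECTIN2_5.

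**Figure D4:**
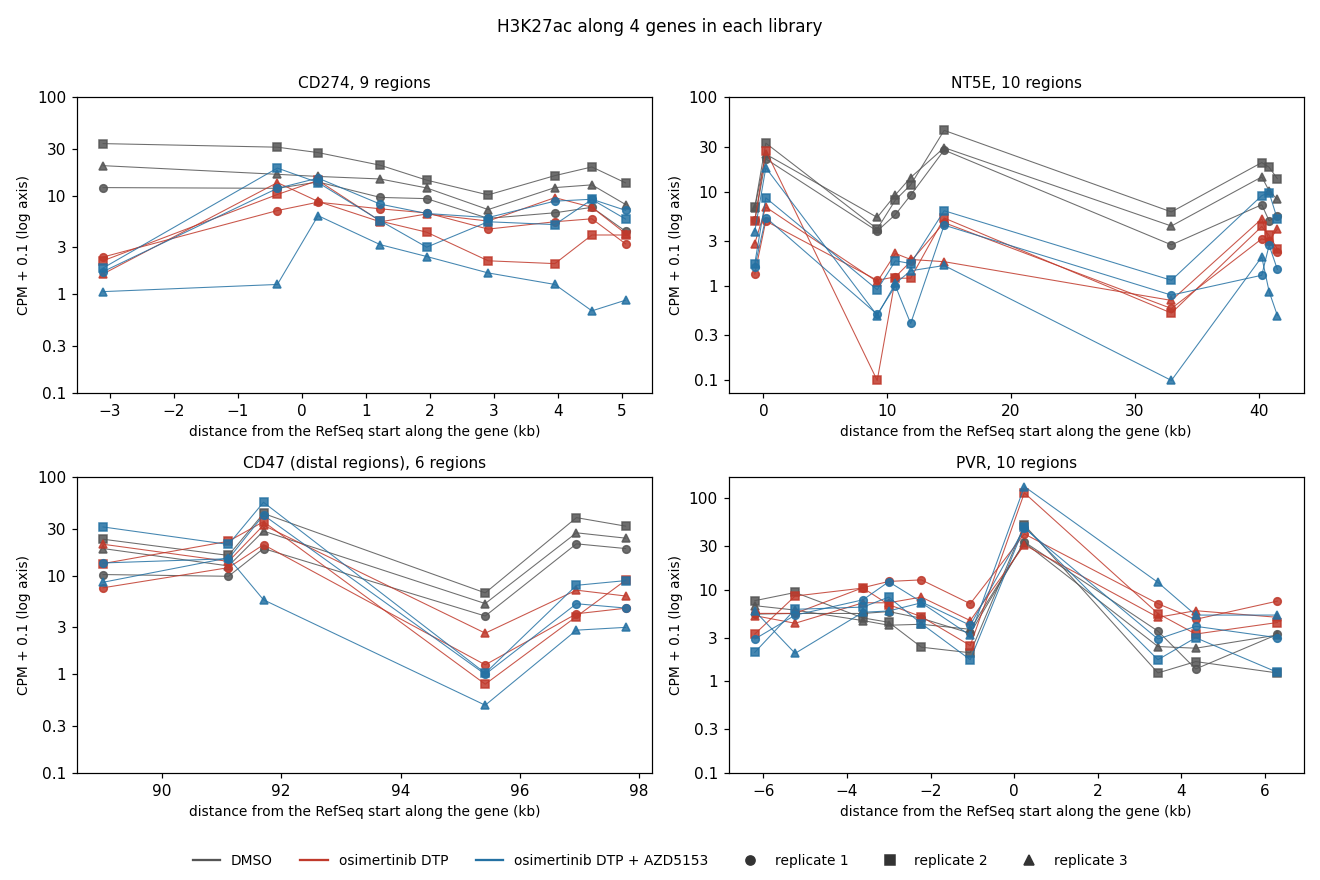
H3K27ac level (CPM + 0.1, log axis) at the regions of CD274, NT5E and PVR and at the distal regions of CD47, against distance from the RefSeq start along the gene in kb. Lines join the regions of 1 library. At the first CD274 region the 6 treated libraries lie at 0.966 to 2.29 CPM and the DMSO libraries at 12 to 33.7 CPM.

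Osimertinib DTP + AZD5153 was compared with osimertinib DTP at these genes. The labels do not say whether osimertinib was kept on with AZD5153. The bromodomain inhibitor and a possible withdrawal of osimertinib therefore cannot be told apart here. By edgeR 0 of 59 regions were higher and 0 lower, beside a background of 0% in each direction, and 1 region had an unadjusted p under 0.05. DESeq2 also gave 0. The log2 values ran from -1.67 at NECTIN2_1 to 0.98 at PDCD1LG2_2, with a median of -0.01 beside 0.06 for all tested regions. Over the 12 sums, 0 passed (background 0% in each direction, and 0 with an unadjusted p under 0.05), with values from -0.59 to 0.65. Without the third osimertinib DTP + AZD5153 library, 0 regions passed as well, beside a background of 0.0637% higher and 0.0587% lower, and 8 regions had an unadjusted p under 0.05. The median was then -1.22 at the 5 NECTIN2 regions and 0.62 at the 8 PDCD1LG2 regions, beside -0.17 over all tested regions, and the lowest adjusted p was 0.0896. The counts at an unadjusted p under 0.05 have no background here. A p that misses the threshold does not show that the levels were alike.

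Against DMSO, osimertinib DTP + AZD5153 had 10 lower and 0 higher regions, beside a background of 9.01% lower and 9.05% higher. They were 5 regions of NT5E, 3 of CD47 and 1 each of CD274 and PDCD1LG2. This comparison shares its DMSO libraries with that of osimertinib DTP. The median log2 value was -0.70, beside 0.23 over all tested regions, and 37 of 59 regions were below 0. Without the third library there were 17 lower and 0 higher regions, beside 17.3% and 18.4% over all regions, and without DMSO replicate 2 there were 5, beside 2.76% lower over all regions. Of the 12 sums, NT5E distal (-2.52, SE 0.58, adjusted p = 0.0174) and NT5E promoter (-1.74, SE 0.42, adjusted p = 0.0212) were lower and 0 were higher, beside a background of 9.74% lower and 7.76% higher. Without the third library the distal NT5E sum was -2.08 (SE 0.47, adjusted p = 0.00883) and the NT5E promoter sum -2.05 (SE 0.39, adjusted p = 0.00366). The distal CD276 sum also passed in that fit (-1.82, SE 0.62, adjusted p = 0.0495), and it did not with all 9 libraries (-1.50, SE 0.59, adjusted p = 0.111). The background of the fit without the third library was 15.3% lower and 16% higher. Both NT5E sums lost their call without DMSO replicate 2, DMSO replicate 3 or osimertinib DTP + AZD5153 replicate 1, at adjusted p of 0.063 to 0.0805, and the promoter sum also without osimertinib DTP + AZD5153 replicate 2 (0.0579).

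**Figure D5:**
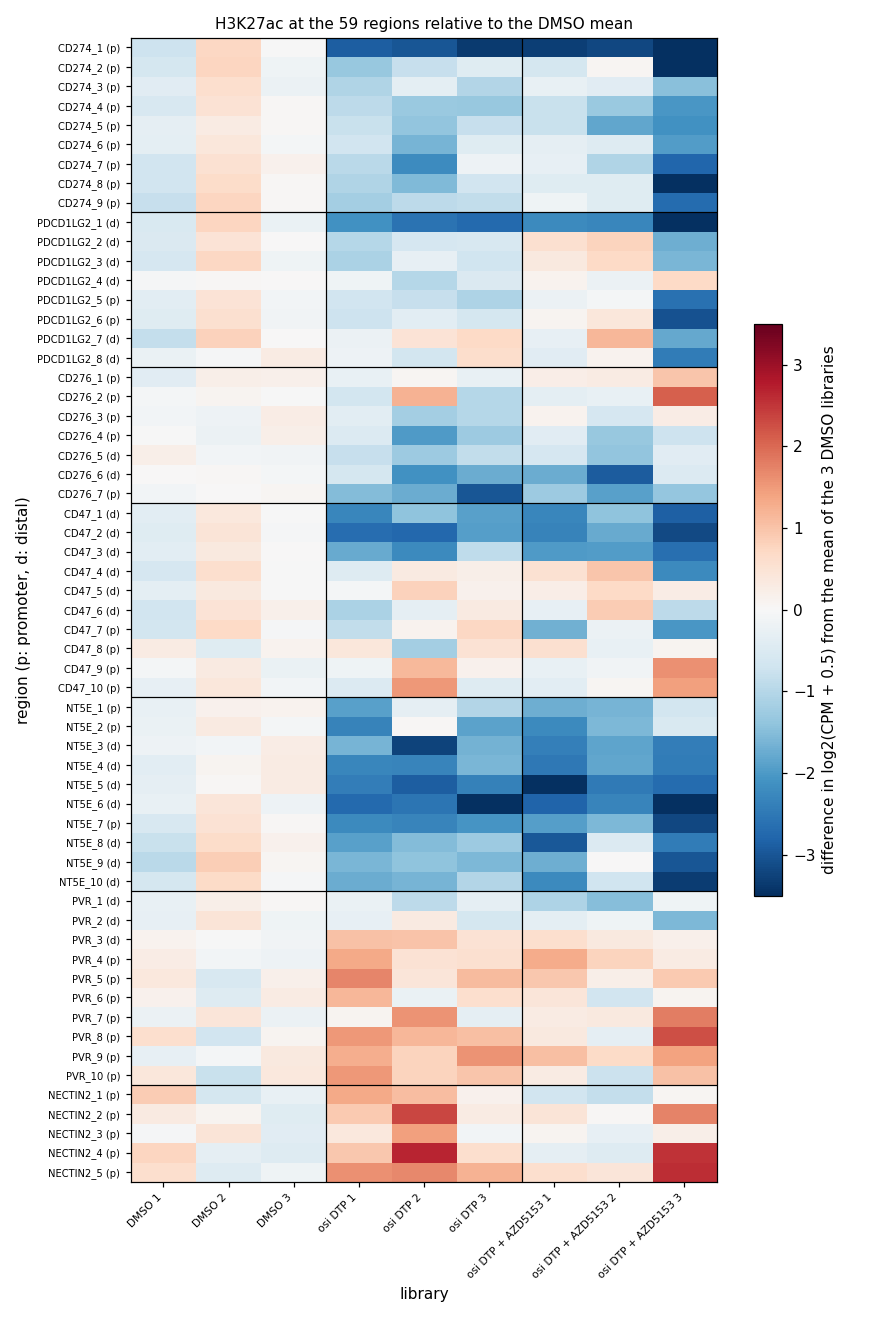
Difference in log2(CPM + 0.5) from the mean of the 3 DMSO libraries at the 59 regions (rows, by gene) in each of the 9 libraries (columns). Most cells of the NT5E rows are blue in the treated libraries, and the third osimertinib DTP + AZD5153 column differs from the other columns of its group at CD274, PDCD1LG2 and CD276.

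Averaged over all regions of a gene, the levels in DMSO were 17.2 ± 4.97 CPM for CD47, 15.4 ± 5.49 for PDCD1LG2, 14.2 ± 5.91 for CD274 and 12.8 ± 3.62 for NT5E (SD, n = 3). CD276 (7.60 ± 0.325 CPM), PVR (7.54 ± 0.875 CPM) and NECTIN2 (4.61 ± 1.42 CPM) were lower. The libraries of the first 4 genes overlapped, as did those of CD276 and PVR, while NT5E lay above CD276 and PVR above NECTIN2 in every library. In osimertinib DTP the order was CD47 (14.3 ± 5.60 CPM), PVR (12 ± 4.09), NECTIN2 (11.6 ± 7.35), PDCD1LG2 (8.58 ± 0.336), CD274 (5.93 ± 0.833), CD276 (5.16 ± 2.43) and NT5E (3.38 ± 1.39). NT5E was lowest on average and overlapped CD276, but its highest library (4.95 CPM) lay below the lowest CD274 library (5.32 CPM). The next pair without overlap was CD274 and PDCD1LG2. In osimertinib DTP + AZD5153 the mean of NT5E was 3.08 ± 1.34 CPM, beside 5.90 ± 3.42 for CD274, 11 ± 7 for PDCD1LG2, 8.30 ± 6.03 for CD276, 15.2 ± 2.76 for CD47, 12.2 ± 5.67 for PVR and 8.20 ± 6.48 for NECTIN2. NT5E overlapped CD274, PDCD1LG2, CD276 and NECTIN2 there, and was the lowest gene in 1 of the 3 libraries. Without the third library the means were 3.18 CPM for NT5E, 7.86 for CD274, 15.0 for PDCD1LG2, 4.84 for CD276, 14.8 for CD47, 8.97 for PVR and 4.47 for NECTIN2. The wide SDs of that group came with the library that stood apart, which had 1.98 CPM at CD274 beside 8.20 and 7.52 CPM, and 15.2 CPM at CD276 beside 5.37 and 4.30 CPM.

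Peaks called by the authors per library gave a second reading of the same reads. Of the 59 regions, 56, 50 and 52 lay under a peak in the DMSO libraries, 49, 44 and 47 in those of osimertinib DTP and 47, 44 and 32 after AZD5153. At NT5E all 10 regions were under a peak in each DMSO library, while osimertinib DTP had 5, 6 and 4 of them under a peak and osimertinib DTP + AZD5153 had 5, 6 and 2. NECTIN2 had 5, 3 and 3 of its 5 regions under a peak in DMSO and all 5 in each osimertinib DTP library. PVR had 9, 4 and 5 of 10 in DMSO and 10, 9 and 10 in osimertinib DTP. With AZD5153 added, the counts were 5, 4 and 5 for NECTIN2, and 8, 5 and 7 for PVR. The peak lists differed in length, from 54188 peaks for osimertinib DTP replicate 2 to 70227 for replicate 3 of the same group. The share of all counted regions under a peak was not computed, so these counts have no background. Whether they differ between groups was not tested. The highest fold enrichment of a peak over a member region was 74.09 in osimertinib DTP + AZD5153 replicate 3, given alike at CD276_1, CD276_2 and CD276_3. In osimertinib DTP replicate 2 it was 55.59 at CD276_1 and CD276_2.

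Counted regions inside the genes that carried no annotation were looked at as well. NT5E had 6 of them, with a median log2 value of -2.09 in osimertinib DTP and 1 lower call, and CD274 had 2, with a median of -1.88 and no call. No such region of PDCD1LG2 (4), CD276 (4), CD47 (3), PVR (11) or NECTIN2 (11) was called in either direction. Their medians were 1.09 at PDCD1LG2, -0.84 at CD276, 0.37 at CD47, 0.53 at PVR and -0.19 at NECTIN2. The median of PDCD1LG2 thus had the opposite sign to that of its annotated regions (-0.71). Over all tested regions 5.13% were lower and 5.58% higher.

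The other genes of these pathways moved in both directions. Of 57 such genes 40 had annotated regions, 255 in all, of which 28 (11%) were higher and 12 (4.71%) lower in osimertinib DTP than in DMSO, beside 5.58% and 5.13% over all tested regions. Their median log2 value was 0.48. Among 93 regions of other ligands and immune regulators 20 were higher and 2 lower, and 10 of the 20 were the 10 regions of CD200. In the adenosine pathway 2 of 72 regions were higher and 8 lower, and 7 of those 8 belonged to ADORA2B, a receptor for the adenosine that CD73 makes. In the CD47 axis 1 of 15 regions was higher and 2 lower. Among 75 regions of genes that regulate PD-L1, 5 (6.67%) were higher and none lower, and in osimertinib DTP + AZD5153 these were 16 (21.3%) and 1, beside 9.05% higher and 9.01% lower over all regions. Without the third AZD5153 library the last 2 counts were 25 and 2, beside 18.4% and 17.3%.

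The 8 such genes with the lowest adjusted p each had it in osimertinib DTP + AZD5153 against DMSO. CD200, a ligand of an inhibitory receptor on myeloid cells, rose most in this set, from 0.181, 0.103 and 0.201 CPM in DMSO to 10.6, 6.75 and 2.71 CPM (5.26, SE 0.75, adjusted p = 0.00114), and had 4.68, 6.12 and 4.93 CPM in osimertinib DTP. The DMSO values of CD200 rest on 2, 1 and 2 counts. Single regions of VSIR (3.11), TNFSF4 (3.79), VTCN1 (3.20), HHLA2 (3.98) and JAK1 (2.98) were also higher, with adjusted p from 0.00262 to 0.00538. VSIR encodes VISTA, VTCN1 and HHLA2 encode B7 relatives, TNFSF4 encodes OX40 ligand and JAK1 is a kinase of interferon receptors. NLRC5, an activator of MHC class I genes, had 3 higher and 1 lower of 13 regions. The lower one had 36.9, 46.8 and 33.1 CPM in DMSO and 5.81, 2.91 and 8.31 CPM after AZD5153 (-2.78, SE 0.58, adjusted p = 0.00458). ADORA2B was lower at the region with its lowest adjusted p (-2.76, SE 0.58, adjusted p = 0.00465), with 14.7, 15.0 and 23.2 CPM in DMSO and 3.41, 1.63 and 2.71 CPM after AZD5153. All 8 calls held without the third library, with log2 values of 5.62 at CD200, 2.72 at VSIR, 4.21 at TNFSF4, 3.60 at VTCN1, 4.49 at HHLA2, 2.53 at JAK1, -3.16 at NLRC5 and -2.80 at ADORA2B.

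For each member the genes with the most similar level across the 9 libraries were found among 4505 genes with at least 5 annotated regions, by Pearson correlation of log2 summed CPM. They were LINC01742 (0.986) and P2RY2 (0.985) for NT5E, MAGEB17 (0.992) and LOC339593 (0.988) for CD274, and LOC392452 (0.994) and LOC100505716 (0.989) for PDCD1LG2. For CD276 they were UBAC1 (0.974) and AGO2 (0.965), for CD47 RYBP (0.983) and ITPRIPL2 (0.980), for PVR PRTG (0.980) and GPC1 (0.976), and for NECTIN2 ASS1 (0.979) and PTK7 (0.972). The points share libraries, depth and base composition, so these values are a description. Without the third osimertinib DTP + AZD5153 library they were between 0.959 and 0.990.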

How the data were processed

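Reads were single-end, 75 nt long, and came from crosslinked H1975 chromatin immunoprecipitated with an H3K27ac antibody. The submitters' processing notes name BWA 0.7.17, MACS2 2.2.6, featureCounts 2.0.0, ChIPseeker 1.29.1 and build hg38, with no settings. The authors deposited raw counts per 502-bp region for all 10 libraries, an annotated table of the same counts for part of the regions with gene symbols, and 1 peak list per H3K27ac library. In those lists the deposited score is a display value and was not interpreted, the deposited fold enrichment is a ratio over background, and p and q are deposited as −log10 values. The rule that chose the annotated regions is not given in the sources used here. The file name of 1 peak list (osimertinib DTP replicate 3) named another cell line, and it was used under the sample it was deposited with.

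Groups were taken from the sample titles. Tests used edgeR (version 4.0.16, with limma 3.58.1 under R 4.3.3). Regions were filtered with filterByExpr (minimum count of 10), scaled with TMM and fitted with glmQLFit (robust) and glmQLFTest over all 9 H3K27ac libraries at once, with Benjamini-Hochberg adjustment over 157919 regions or 21039 gene sums at a threshold of 0.05. All 59 member regions passed the filter. DESeq2 1.42.0 was an alternative. The procedure was run on simulated counts with known changes, independent libraries and a fixed spread. That simulation held no library that stood apart and no deviations shared between replicates, so it cannot show how the tests behave with them. CPM was computed from TMM-scaled library sizes. No spike-in was used in these values, so all levels are relative to the library. No replicate pair agreed within sampling noise (lowest chi-square per degree of freedom 4.17). The titles number the replicates of each group from 1 to 3. Libraries of osimertinib DTP and DMSO with equal numbers deviated together from their groups (Pearson 0.349, 0.368 and 0.341 across regions), so the numbers count as pairs there. The tests given have no term for the replicate, and the fit with the replicate number as a block is given where it changes a call. For osimertinib DTP + AZD5153 and DMSO (-0.00779, 0.549 and 0.355) the numbers do not count as pairs. Nor do they for osimertinib DTP + AZD5153 and osimertinib DTP (0.267, -0.00603 and -0.269). The block fit covered all 9 libraries, so it also placed those of osimertinib DTP + AZD5153 in blocks. It is therefore no fit of the DMSO and osimertinib DTP pairs alone.

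A region was counted as under a peak at 1 bp of overlap. Promoter sequences came from RefSeq (GRCh38.p14). A table entry was found for 6 of the 7 genes. The genes, lists and rules for naming were chosen with earlier results of these data known. Named regions were the highest promoter and distal region of each member and its called regions, at most 4 per comparison, and PVR_9, NT5E_7 and the CD47 ratio were picked after values were seen. One leukocyte marker of the lists is not reported here.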

Additional observations from a re-analysis of the deposited data

How the results depend on the processing

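With both groups fitted alone, 22 member regions (6 higher, 16 lower) and 6 sums were called in osimertinib DTP against DMSO, where the fit of 9 libraries gave 10 and 1. Over all features that fit called 13.6% of regions higher and 12.8% lower, and 11.9% and 12.6% of sums. At an adjusted p under 0.01 there were 3 regions and 0 sums, and 6 regions and 0 sums in osimertinib DTP + AZD5153 against DMSO. The shares of all features at 0.01 are not given, so these counts have no background. For the sums in osimertinib DTP, DESeq2, DESeq2 size factors and a loess offset each gave 2. DESeq2 called 10.6% of all sums lower and 8.5% higher, and the shares of the other fits are not given. Fewer or more libraries changed the calls. In osimertinib DTP they ranged from 1 to 23 regions and from 0 to 7 sums, and in osimertinib DTP + AZD5153 from 5 to 17 regions and from 0 to 3 sums, when 1 library was left out. In these fits 0.294% to 12.7% of all regions were lower and 0.407% to 14.2% higher in osimertinib DTP. For all sums the shares were 0.418% to 13.1% and 0.204% to 12%. In osimertinib DTP + AZD5153 they were 2.76% to 17.3% and 2.4% to 18.4% of regions, and 4.14% to 15.3% and 1.9% to 16% of sums. No alternative called a member region or sum in osimertinib DTP + AZD5153 against osimertinib DTP. All other settings left the count of called regions within 1.5 times.

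With the replicate number as a block, 9 regions and 0 sums were called in osimertinib DTP against DMSO, and 11 regions and 2 sums in osimertinib DTP + AZD5153. The shares of all regions called lower were 5.07% and 9.63%, and those of all sums 2.62% and 7%. In the latter the distal NT5E sum had an adjusted p of 0.0485.

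No called value changed its sign under any alternative. Values that did were not called. CD276_2 in osimertinib DTP was -0.04 without TMM and -0.21 with a loess offset. CD47_4 was 0.05 with no filter, 0.03 with both groups alone, 0.04 with the block and 0.00 with the annotated regions alone, and in osimertinib DTP + AZD5153 it was -0.04 with the loess offset. The CD276 promoter sum in osimertinib DTP + AZD5153 was 0.00 with DESeq2 and with its size factors, -0.01 without TMM, -0.04 with the loess offset and -0.07 with the block. The distal PVR sum there was 0.11 when promoters were limited to 1 kb.

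Over fits without 1 library, signs also changed at CD276_2 (-0.79 to 0.67 in osimertinib DTP, -0.32 to 1.33 in osimertinib DTP + AZD5153), PVR_7 (-0.07 to 1.08 in osimertinib DTP), CD47_4 (-0.28 to 0.38, and -0.34 to 0.69), CD47_10 (-0.44 to 0.93, and -0.18 to 0.85) and PDCD1LG2_2 in osimertinib DTP + AZD5153 (-0.22 to 0.64). Among sums they changed for CD276 promoter (-0.55 to 0.28), CD47 promoter (-0.27 to 0.37) and NECTIN2 promoter (-0.13 to 0.85) in osimertinib DTP + AZD5153 and for PVR distal (-0.15 to 0.28) in osimertinib DTP. The cause was not tested.

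Without TMM the CD276 level in DMSO was 8.22 CPM. Peaks with a −log10 q of at least 5 covered a mean of 49.0 member regions in DMSO and 42.7 in osimertinib DTP, beside 52.7 and 46.7 for all peaks, and 42.7 in osimertinib DTP were covered over at least 0.5 of their length.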
